A study of Homo sapiens with 4 samples.

Results

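The insulin-like growth factor (IGF) axis was examined through 10 genes, chosen by their symbols among the 17894 genes measured: the ligands IGF1 and IGF2, the receptors IGF1R and IGF2R, and the binding proteins IGFBP1 to IGFBP6. RNA-SEQ was performed on H1 cells, a human embryonic stem cell line, at day 2 of hematopoietic differentiation on mAGM-S3, a mouse stromal line. Human cells were sorted as TRA-1-85+ before RNA extraction. By the paper's methods, colonies were plated on mAGM-S3 after 48 h of preculture in mTeSR1. Medium with 10% fetal bovine serum replaced the earlier medium 48 h after plating. There were 4 libraries: 1 of wild-type control cells, 1 of wild-type cells treated during the first day with R-spondin2 (20 ng/mL), and 2 of LGR4-/- cells, 1 per clone, without added R-spondin2. LGR4 encodes a receptor for R-spondins. Each clone is a separate line, and there was 1 control library, so that clonal differences cannot be told apart from the loss of LGR4, and no comparison of R-spondin2 with control has a replicate check.

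IGF1 and IGF2 are secreted peptides that signal through the receptor tyrosine kinase IGF1R to PI3K, AKT and mTOR. IGF2R carries IGF2 to lysosomes and so removes it from the medium. The IGFBPs hold the ligands outside the cell and can limit or prolong their action, and proteases release the ligands by cutting the IGFBPs. IGF2 is an imprinted gene that is active in embryonic tissues, including mesoderm. IGF signaling also supports the growth of pluripotent stem cells in culture.

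The authors deposited FPKM, which are fragments scaled by transcript length and by the number of mapped fragments, and levels of different genes can therefore be set side by side. Libraries were compared by subtracting log2(FPKM+1) values, which makes the change of genes with few fragments look smaller than it is. A gene was called at a 2-fold difference on this scale if its mean over the 4 libraries reached 1 FPKM, which 12697 genes and 8 of the 10 members did. The depth, estimated from the steps between low FPKM, lay between 8680000 and 8910000 reads. From it, reads were implied for each member, and 95% intervals of the log2 ratio of implied reads were computed. These intervals cover counting error only. For genes with several transcripts the shortest was used, which gives the widest interval. LGR4 itself was at 21.8 FPKM in control, 24.3 with R-spondin2, 7.40 in clone 1 and 13.9 in clone 2, so LGR4 RNA was still present in both clones. Its level checks the labels only in direction, since the edited site is not given in the sources used here.

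The largest differences lay in IGFBP5, IGF2 and IGFBP3, between the clones and the other libraries, whereas the receptors and IGFBP6 were nearly level. IGFBP5 was lower in both clones past 2-fold, at 18.0% and 22.6% of its control level. IGF2 was at 29.5% and 45.9% of control and IGFBP3 at 352% and 168%. With R-spondin2 no member was called. IGF2 was at 127% of control, the largest difference on the log2(FPKM+1) scale used for calls, and the lower IGFBP3, at 75.2%, had the largest ratio.

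The sequence upstream of the start site is shown for IGFBP5, the member lower in both clones past 2-fold, and for IGFBP4, the abundant binding protein that was also lower in both. Each is the 250 bases before the RefSeq start (GRCh38.p14), 5′ to 3′ on the gene's own strand, with no annotated exon in the window. IGFBP5 is on the minus strand (chr2:216695550-216695799) and IGFBP4 on the plus strand (chr17:40443200-40443449). Capitals mark TATTTAA, 31 to 25 bases before the start, in IGFBP5 and TATAAA, 29 to 24 bases before the start, in IGFBP4.
IGFBP5: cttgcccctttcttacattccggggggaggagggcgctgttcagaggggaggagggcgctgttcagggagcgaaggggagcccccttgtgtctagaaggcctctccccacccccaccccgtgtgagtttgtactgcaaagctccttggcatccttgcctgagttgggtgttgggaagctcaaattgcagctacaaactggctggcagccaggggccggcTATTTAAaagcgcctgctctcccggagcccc
IGFBP4: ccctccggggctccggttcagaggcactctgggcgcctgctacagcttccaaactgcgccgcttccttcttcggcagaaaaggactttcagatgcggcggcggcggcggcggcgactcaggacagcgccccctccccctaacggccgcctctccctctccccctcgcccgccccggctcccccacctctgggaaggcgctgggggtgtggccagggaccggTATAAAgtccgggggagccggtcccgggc
The letters TATAAA, on either strand, were found in 10.8% of 34788 promoters of the same length, and TATTTAA in 4.20%. The letters TATTTAA were searched for after the IGFBP5 sequence had been seen. The IGFBP5 window was 61.2% G and C with 8 CG pairs, and the IGFBP4 window 71.6% with 24, against medians of 58.0% and 11 over all promoters. Among further motifs searched on both strands, the GC box GGGCGG was found in IGFBP4, 83 to 78 bases before the start, and is in 42.6% of all promoters. The other letters searched were in neither window. These were CCAAT, found in 32.0% of all promoters, the TCF/LEF core CTTTGA, found in 11.2%, and the T-box element AGGTGT, found in 9.50%. The SMAD-binding element CAGAC is in 38.0% of promoters and the GATA site GATAAG in 5.60%. A match of letters is a description and not a binding site. Promoter entries were matched for 8 of the 10 members, and IGF2 and IGFBP1 had none.

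The levels of the members spanned more than 2 orders of magnitude. IGFBP2 (NCBI gene 3485), a binding protein abundant in embryonic tissues, was the highest at a mean of 153 FPKM over the 4 libraries, rank 391 among all genes. IGFBP4 (3487) followed at 83.2 FPKM, then IGF2R (3482) at 17.9 and IGF1R (3480) at 12.6. Each of these lay wholly above the next over the 4 libraries, and IGF1R lay wholly above IGFBP6 (3489), at 6.34. Below these, the ranges of IGFBP6 and IGF2 (3481, mean 4.38), of IGF2 and IGFBP3 (3486, mean 2.73), and of IGFBP3 and IGFBP5 (3488, mean 2.48) overlapped, and their order depended on the library. IGF1 (3479) had a mean of 0.315 FPKM and lay wholly below IGFBP5. IGFBP1 (3484), best known from liver and decidua, was listed at 0 in all 4 libraries, where 3 reads would correspond to between 0.204 and 0.209 FPKM. In the plot of levels, the points of a member lie close together down to IGFBP6 and spread apart for IGF2, IGFBP3 and IGFBP5.

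**Figure D1:**
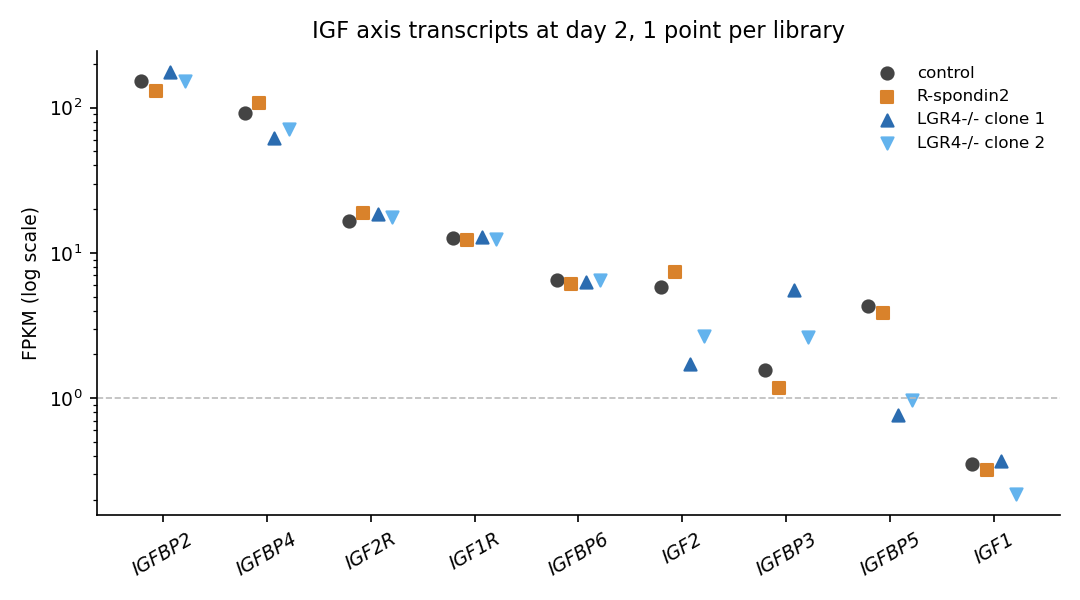
FPKM (log scale) of the IGF axis transcripts in the 4 libraries, 1 point per library, ordered by mean level. The dashed line is the filter of 1 FPKM, and IGFBP1, at 0 in all 4 libraries, is not drawn. IGFBP5 is at 0.77 and 0.97 FPKM in the clones and at 4.29 and 3.87 FPKM in the other libraries.

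Of the ligands, IGF2 was the one with more transcript. It was at 5.80 FPKM in control, 7.35 with R-spondin2, 1.71 in clone 1 and 2.66 in clone 2. Both clones lay below both wild-type libraries. The share of all genes that separate in this way was not counted, so the separation is a description. The difference in log2(FPKM+1) from control was 0.30 with R-spondin2, -1.33 in clone 1 and -0.89 in clone 2, so that IGF2 was past 2-fold in clone 1 and not in clone 2. The log2 ratio of implied reads was -1.73 (95% interval -2.63 to -0.90) in clone 1 and -1.12 (-1.88 to -0.40) in clone 2. With R-spondin2 it was 0.33 (-0.21 to 0.88), an interval that holds 0, while the longest IGF2 transcript gave 0.34 (0.11 to 0.57). IGF2 is among the mesoderm genes that the study displayed from the wild-type libraries, so its higher level with R-spondin2 is not independent evidence of that direction. IGF2 lies on chromosome 11, from 2129112 to 2149603 on the minus strand (GENCODE release 29, GRCh38), and overlaps the read-through gene INS-IGF2, which was listed at 0 in all 4 libraries.

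IGF1 was at 0.35 FPKM in control, 0.32 with R-spondin2, 0.37 in clone 1 and 0.22 in clone 2, below the filter throughout. With the longest IGF1 transcript between 14 and 24 reads were implied in each library, and every interval held 0. No difference in IGF1 was detectable at this depth. The ratio of IGF2 FPKM to IGF1 FPKM was 16.6 in control, 23.0 with R-spondin2, 4.62 in clone 1 and 12.1 in clone 2, with few IGF1 reads behind each value.

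The receptors varied little. IGF1R, the signaling receptor, was at 12.60 FPKM in control, 12.29 with R-spondin2, 12.90 in clone 1 and 12.49 in clone 2. The highest level was 1.05 times the lowest, and the log2 ratios of implied reads to control ran from -0.04 to 0.03. Their intervals, which all held 0, spanned -0.15 to 0.14. IGF2R, the scavenger of IGF2, was at 16.52 FPKM in control, 18.83 with R-spondin2, 18.47 in clone 1 and 17.78 in clone 2. It was highest with R-spondin2 and lowest in control, and the log2 ratios to control were 0.19 (0.10 to 0.27), 0.16 (0.08 to 0.25) and 0.11 (0.02 to 0.19). These differences exceeded counting error but were within the spread across all genes, of which the SD was 0.21 with R-spondin2 and 0.22 between the clones, on the log2(FPKM+1) scale. The ratio of IGF2R to IGF1R was 1.31 in control and between 1.42 and 1.53 in the other libraries.

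IGFBP5, a binding protein of mesenchymal tissues that also binds extracellular matrix, was at 4.29 FPKM in control, 3.87 with R-spondin2, 0.77 in clone 1 and 0.97 in clone 2. The clones lay together, well below the wild-type libraries, a separation whose share over all genes was not counted. The difference from control was -0.12 with R-spondin2, -1.58 in clone 1 and -1.43 in clone 2 on the log2(FPKM+1) scale, and 0.15 between the clones. In implied reads the numbers were 238, 209, 43 and 53, and the log2 ratio was -2.47 (-2.97 to -1.99) in clone 1 and -2.15 (-2.60 to -1.71) in clone 2. With R-spondin2 the ratio was -0.15 (-0.42 to 0.12). 

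IGFBP3, the main carrier of IGFs in serum, went the other way. It was at 1.57 FPKM in control, 1.18 with R-spondin2, 5.52 in clone 1 and 2.63 in clone 2. Both clones lay above both wild-type libraries, and clone 1 was the highest. Here too the share of all genes that separate so was not counted. The difference from control in log2(FPKM+1) was 1.34 in clone 1, past 2-fold, and 0.50 in clone 2. The log2 ratio of implied reads was 1.80 (0.94 to 2.73) in clone 1. In clone 2 it was 0.70 (-0.29 to 1.73), which holds 0, while the longest transcript gave 0.72 (0.06 to 1.40). With R-spondin2 it was -0.41 (-1.68 to 0.81), which also holds 0. IGFBP3 also differed between the clones, at -1.10 (-1.86 to -0.37) for clone 2 against clone 1. The ratio of IGFBP5 FPKM to IGFBP3 FPKM was 2.73 in control and 3.28 with R-spondin2, against 0.14 in clone 1 and 0.37 in clone 2.

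IGFBP4, a binding protein that is cut by the protease PAPPA, was at 92.45 FPKM in control, 108 with R-spondin2, 61.63 in clone 1 and 70.80 in clone 2. The order of the libraries was that of IGF2, with R-spondin2 highest and clone 1 lowest. The log2 ratio of implied reads was 0.23 (0.13 to 0.32) with R-spondin2, -0.58 (-0.69 to -0.48) in clone 1 and -0.38 (-0.49 to -0.28) in clone 2, all beyond counting error and none past 2-fold. IGFBP2 was at 153.7 FPKM in control, 130 with R-spondin2, 176 in clone 1 and 153.5 in clone 2. Clone 2 and control were level, at a log2 ratio of 0.00 (-0.12 to 0.12), whereas R-spondin2 was lower at -0.24 (-0.37 to -0.12) and clone 1 higher at 0.20 (0.08 to 0.31). IGFBP6, which prefers IGF2 over IGF1, was at 6.51, 6.09, 6.28 and 6.49 FPKM in the same order. All its intervals held 0, and they spanned -0.62 to 0.51. On the log2(FPKM+1) scale, IGFBP4 differed by 0.22 and IGFBP2 by -0.24 with R-spondin2. Both are about the size of the SD across all genes in that comparison, 0.21.

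**Figure D2:**
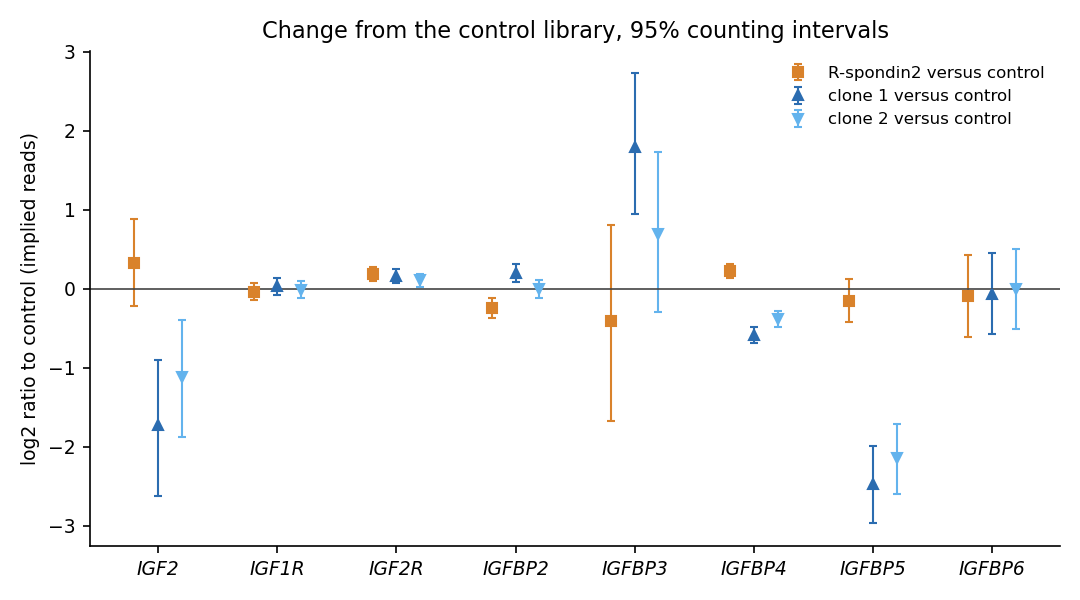
Log2 ratio of implied reads to the control library for the 8 members with a mean of at least 1 FPKM, with R-spondin2 (squares), clone 1 (upward triangles) and clone 2 (downward triangles). Bars are 95% intervals that cover counting error only. IGFBP5 is below 0 in both clones (-2.47 and -2.15), as are IGF2 and IGFBP4, while all the IGF1R and IGFBP6 intervals hold 0.

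IGFBP2 and IGFBP4 together made up nearly all of the summed FPKM of the 6 binding proteins. Their joint share was 95.2% in control, 95.5% with R-spondin2, 94.98% in clone 1 and 95.7% in clone 2. The sum itself was 259, 249, 251 and 234 FPKM. Within it the balance between them differed between the libraries. IGFBP2 was 59.5% of the sum in control, 52.2% with R-spondin2, 70.4% in clone 1 and 65.5% in clone 2, and IGFBP4 was 35.8%, 43.3%, 24.6% and 30.2%. The ratio of IGFBP2 FPKM to IGFBP4 FPKM was 1.66 in control, lowest with R-spondin2 at 1.204, and higher in both clones at 2.86 and 2.17. Relative to control the log2 change of this ratio was -0.47 with R-spondin2, 0.78 in clone 1 and 0.38 in clone 2. The clones differed from each other by -0.40. This spread is about as large as the difference between clone 2 and control, and close in size to the -0.47 with R-spondin2. A ratio within a library shows unequal change of the 2 genes and does not depend on how the libraries were scaled.

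**Figure D3:**
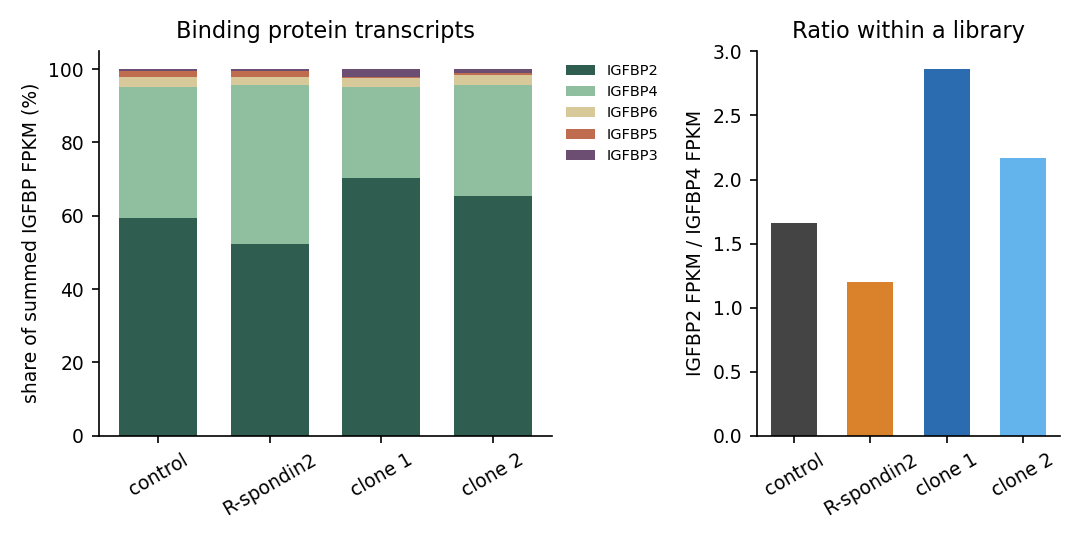
Left, share of the summed IGFBP FPKM in each library (%), stacked by gene, with IGFBP1 at 0. Right, IGFBP2 FPKM divided by IGFBP4 FPKM, 1 bar per library without replicates, from 1.204 with R-spondin2 to 2.86 in clone 1.

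Of the 6 IGFBP genes, 4 lie in 2 pairs on the genome, and the members of a pair did not share a level. IGFBP2 (chromosome 2, 216632828 to 216664436, plus strand) and IGFBP5 (216672105 to 216695525, minus strand) are separated by 7668 bases with 0 protein-coding genes between them (GENCODE release 29, GRCh38). IGFBP2 was at 115% of control in clone 1 and 99.9% in clone 2, where its neighbour IGFBP5 was at 18.0% and 22.6%. IGFBP1 (chromosome 7, 45888357 to 45893668) and IGFBP3 (45912245 to 45921874) are 18576 bases apart. IGFBP1 was listed at 0 in the same libraries in which IGFBP3 was detected. IGFBP4 is on chromosome 17, from 40443461 to 40457731.

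The members were then counted against all genes. With R-spondin2, 0 of 8 members were called, where 0.221% of the 12697 genes were. In clone 1, IGF2 and IGFBP5 were called lower, 2 of 8 against 2.26% of all genes, and IGFBP3 higher, 1 of 8 against 1.27%. In clone 2, IGFBP5 was called lower, 1 of 8 against 1.17%, and 0 of 8 were called higher against 0.331%. Called lower in both clones was 1 of 8 against 1.08%. This was IGFBP5, which was under 1 FPKM in both clones and passed the filter only through the wild-type libraries, where it was high, so the count is given as a description. Called higher in both was 0 of 8 against 0.236%. Between the clones, 0 of 8 members and 0.252% of genes were called. With so few members, 1 gene is already a larger share than the background. At a threshold of 1.5-fold, IGF2 joined IGFBP5 among the members lower in both clones, 2 of 8 against 3.09%.

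The median difference of the 8 members in log2(FPKM+1) was -0.06 with R-spondin2, -0.01 in clone 1 and -0.01 in clone 2, beside -0.01, 0.02 and 0.02 over all genes. The larger differences lay in single members and had opposite signs. An exact permutation test of 2 clones against 1 control cannot give a p below 0.333. In a limma fit of the 3 groups, with 1 residual degree of freedom from the clones alone, the adjusted p was 0.0755 for IGFBP5, 0.102 for IGF2, 0.114 for IGFBP4 and 0.28 for IGFBP3. By this limma test 0 of 8 members and 0.00% of all genes reached an adjusted p under 0.05, whereas 3 of 8 members (IGF2, IGFBP4 and IGFBP5) and 18.4% of all genes had an unadjusted p under 0.05. The fit assumes that the single control varies as the clones do.

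Markers of cell state moved with these members. All 9 mesoderm markers (among them MIXL1, MESP1, HAND1 and APLNR) were lower in both clones than in control, and 3 were past 2-fold in both. In clone 2, T (-0.08) and KDR (-0.06) were nearly level with control. Over all genes, 5894 of 12697 were lower in the mean of the clones and 1.08% were past 2-fold lower in both. The mesoderm sums were 1114 FPKM in control, 1451 with R-spondin2, 394 in clone 1 and 612 in clone 2. This was the order of IGF2 and IGFBP4. With R-spondin2, 8 of 9 mesoderm markers were higher, beside 6066 of 12697 genes, and 0 were called, beside 0.221% of all genes. All 8 pluripotency markers were higher in both clones, and 2 were past 2-fold in both. Over all genes, 6803 of 12697 were higher in the mean of the clones and 0.236% were past 2-fold higher in both. The pluripotency sums were 1389, 1145, 2210 and 2068 FPKM, with the libraries listed as before. With R-spondin2, 7 of 8 pluripotency markers were lower, beside 6585 of 12697 genes. Of the 8, 1 was called, SOX2, at 19.9 FPKM in control and 5.58 with R-spondin2. The sums of the stromal and fibroblast markers were 238, 297, 216 and 247 FPKM, with DCN and POSTN below 1 FPKM in all 4 libraries. Of the 6 markers of this list that passed the filter, 3 were higher and 3 lower in the mean of the clones. LUM had the largest difference, at 5.49, 9.11, 0.16 and 1.45 FPKM, while COL1A1 (64.0, 83.6, 74.8 and 74.6) and THY1 (44.0, 36.1, 54.3 and 64.5) were higher in both clones than in control. Of the blood and endothelial markers 4 of 6 were below 1 FPKM throughout, with sums between 4.34 and 5.53. Trophoblast markers summed to 2.16, 0.73, 5.03 and 3.83 FPKM, with 3 of 4 below 1 FPKM in all libraries. The endoderm sums were 63.4, 65.5, 38.7 and 42.7 FPKM, with AFP and TTR below 1 FPKM throughout. The other endoderm markers went both ways. SOX17 (47.1, 49.9, 23.6 and 27.2) and APOA1 (6.21, 6.33, 2.05 and 2.70) were lower in both clones than in control, whereas FOXA2 (9.05, 8.44, 11.9 and 11.6) was higher. The part of these differences in the levels of IGF2, IGFBP3, IGFBP4 and IGFBP5 was not tested. In bulk RNA, fewer cells of a type and less RNA per cell cannot be told apart.

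The genes whose differences from control lay closest to those of IGF2 were DIO3, BCAR3 and ADAMTS9. Closeness was the root mean square distance over the 3 other libraries in log2(FPKM+1), among 12689 genes. DIO3, an imprinted gene that encodes a thyroid hormone deiodinase, was at a distance of 0.03, with 10.3 FPKM in control, 12.8 with R-spondin2, 3.63 in clone 1 and 4.92 in clone 2. BCAR3 followed at 0.06 and ADAMTS9, a secreted metalloprotease, also at 0.06. Closest to IGFBP5 were CYGB at 0.08, FGF10, a fibroblast growth factor, at 0.11, and DLL1, a Notch ligand, at 0.11. DLL1 was at 6.07 FPKM in control, 5.89 with R-spondin2, 1.65 in clone 1 and 1.77 in clone 2. Over 3 differences many genes can lie close by, and these distances are a description.

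Around the axis, 75 further genes were listed, of which 70 were measured and 59 passed the filter. With R-spondin2, 0 of 59 were called, beside 0.221% of all genes. PHLDA2 had the largest difference, at 5.97 FPKM in control and 2.75 with R-spondin2. At -0.89 it fell short of 2-fold on the log2(FPKM+1) scale. In clone 1, SOCS3 and PLAGL1 were called lower, 2 of 59 beside 2.26% of all genes, and in clone 2 PLAGL1 alone, 1 of 59 beside 1.17%. Their median differences were 0.00 with R-spondin2, -0.07 in clone 1 and -0.06 in clone 2. The plot by list shows the spread around 0 of the lists drawn.

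**Figure D4:**
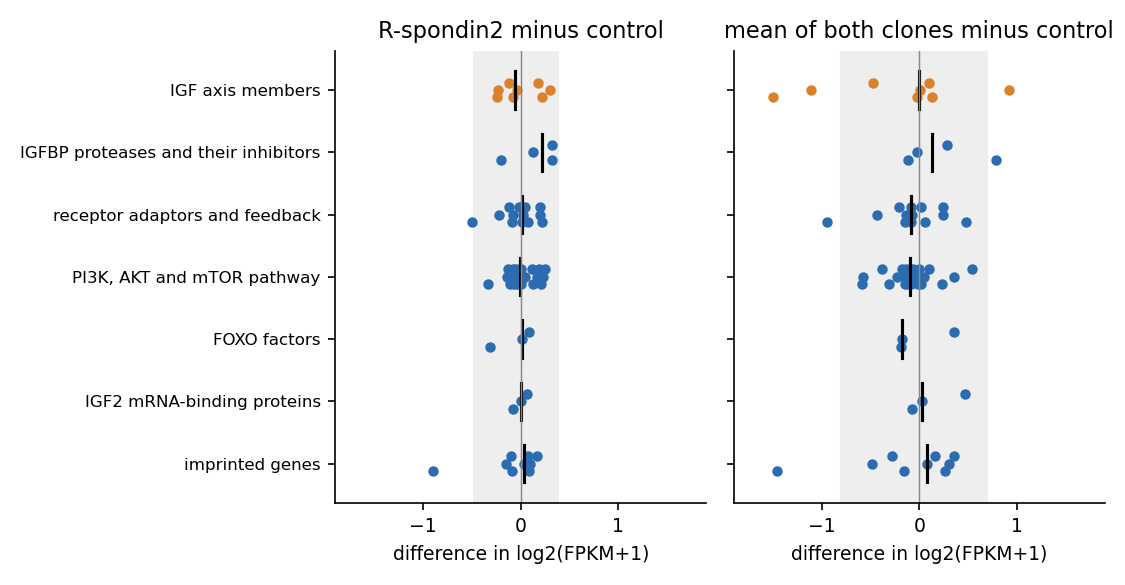
Difference in log2(FPKM+1) from control with R-spondin2 (left) and as the mean of both clones (right). Each point is 1 gene that passed the filter, and vertical bars mark the list medians. The list with INSR and that of the IGFBP-related proteins (IGFBP7 and IGFBPL1) are not drawn. The grey band spans the central 95% of all 12697 genes. IGFBP5 (-1.5), IGF2 (-1.11), IGFBP3 (0.92), PLAGL1 (-1.45), SOCS3 (-0.95) and HTRA1 (0.79) lie outside it on the right. On the left, PHLDA2 (-0.89) and GRB14 (-0.50) lie outside it.

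Among the proteases that cut IGFBPs and their inhibitors, 4 of 8 genes passed the filter and 0 were called in any comparison. Over all genes, 0.221% were called with R-spondin2, 2.26% were lower in clone 1 and 1.17% lower in clone 2. At such shares, 0 calls do not set a list this short apart. ADAM9, a membrane metalloprotease, was highest at 7.25 FPKM in control and 9.32, 6.54 and 6.67 in the other libraries. STC2, an inhibitor of PAPPA, was at 4.72, 3.96, 5.85 and 6.11 FPKM. PAPPA itself was between 0.15 and 0.31 FPKM. HTRA1, a secreted serine protease that cuts IGFBP5, was at 2.19 FPKM in control and 2.47 with R-spondin2, and at 4.44 and 4.56 in the clones. Its differences of 0.77 and 0.80 fell short of 2-fold on the log2(FPKM+1) scale. Of the IGFBP-related proteins, IGFBPL1 was at 21.15, 18.79, 19.19 and 19.13 FPKM. IGFBP7 was at 8.08, 11.66, 5.78 and 10.82, and differed more between the clones than from control. HTRA1, PAPPA, SOCS3, PEG10, PHLDA2 and GRB14 are named beyond the rule for named genes, after their values were seen. The same holds for every marker gene named, among them LUM, COL1A1, THY1, MIXL1, MESP1, HAND1 and APLNR.

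Of the receptor partners, INSR, which can pair with IGF1R in hybrid receptors, was at 2.79, 2.39, 3.80 and 3.01 FPKM. INSRR was the next highest of its list, between 0.03 and 0.16 FPKM. The adaptors SHC1 (75.2, 86.3, 87.2 and 90.6 FPKM) and GRB2 (41.6, 43.9, 42.6 and 44.3) were the highest among 13 adaptor and feedback genes. SOCS3, a feedback inhibitor of cytokine and insulin receptor signaling, was at 33.5 FPKM in control, 31.7 with R-spondin2, 14.3 in clone 1 and 19.8 in clone 2. Its difference was -1.17 in clone 1 and -0.73 in clone 2. Of the 24 PI3K, AKT and mTOR genes all passed the filter and 0 were called. Over all genes, 0.221% were called with R-spondin2 and 1.08% were lower in both clones, so 0 calls do not set this list apart. EIF4EBP1, a repressor of translation that mTOR inactivates, was at 110, 120, 78.8 and 90.04 FPKM. INPPL1, a lipid phosphatase, was at 54.3, 55.9, 40.4 and 47.4 FPKM. In this list 18 of 24 genes were lower on average in the clones, beside 5894 of 12697 over all genes. These differences were small, with a median of -0.09 beside 0.02 over all genes.

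Of the 4 FOXO factors, which AKT keeps out of the nucleus, 3 passed the filter. Among these, 0 were called, beside 0.221% of all genes with R-spondin2 and 1.08% lower in both clones. FOXO1 was at 9.78, 10.4, 8.93 and 7.99 FPKM and FOXO3 at 8.50, 8.56, 7.08 and 7.74. The IGF2 mRNA-binding proteins, which bind IGF2 and many other transcripts, were abundant. IGF2BP1 was at 62.8, 59.5, 59.6 and 59.8 FPKM, and IGF2BP3 was at 29.5, 29.7, 44.5 and 38.4, higher in both clones without passing 2-fold.

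Among 15 imprinted genes listed, 9 passed the filter. SNRPN (132, 118, 176 and 161 FPKM) and MEST (66.8, 62.1, 85.9 and 75.3) were the highest, and both were higher in the clones than in control. PLAGL1, an imprinted zinc finger transcription factor, was the one gene of these lists called lower in both clones. That is 1 of 59 beside 1.08% of all genes. It was at 8.22 FPKM in control, 9.33 with R-spondin2, 1.96 in clone 1 and 2.83 in clone 2. Its differences were 0.16, -1.64 and -1.27, and the order of the libraries was that of IGF2. In the other 8 genes of this list that passed the filter, the mean clone differences ran from -0.48 in PEG10 to 0.35 in SNRPN.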

How the data were processed

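RNA-SEQ libraries (TruSeq, total RNA) came from TRA-1-85+ cells sorted at day 2. The authors deposited FPKM to 2 decimals per library, already scaled for transcript length and depth; the submitters' processing notes name BWA, Bowtie, RSEM and hg19, without versions. No count model was applied, since FPKM are not counts. From the deposited FPKM, differences in log2(FPKM + 1) were computed for genes whose mean reached 1 FPKM and called at 2-fold. Samples were grouped by their labels. Members, lists and tests were chosen with earlier results of these data known. Genes named were the members, LGR4, from each pathway list (not the marker lists) the 2 highest and those called with R-spondin2 or the same way in both clones, and the 3 genes closest to IGF2 and IGFBP5.

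To estimate depth, FPKM under 0.6 (transcripts under 1500 bases) were turned into reads with GENCODE release 29 lengths, known for 8068 genes with 1 RefSeq transcript. The total that brought them nearest to integers was taken. Of these values, 76.3% to 77.7% came within 0.2 of an integer (38.5% to 47.3% after shuffling lengths). Intervals are Clopper-Pearson (95%) and rest on this estimate and these lengths. Annotation coordinates are GRCh38 and were not converted from the authors' hg19. The scripts were tested on simulated data with counting error only, so variation between libraries or clones was not covered. Changes were simulated in genes of at least 5 FPKM in control, which is above the control level of IGFBP5. Whether libraries came from separate cultures is not given in the sources used here. Alternatives were a pseudocount of 0.1, no filter, a filter of 5 FPKM, median-ratio rescaling, a 1.5-fold threshold, each clone left out and limma 3.58.1 (R 4.3.3). Other steps used Python 3.11.15, numpy 2.4.6, pandas 2.3.3, scipy 1.17.1 and matplotlib 3.10.9. INS, H19, KCNQ1OT1, MEG3 and IGF2-AS were not analysed here.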

Additional observations from a re-analysis of the deposited data

How the results depend on the processing

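For the 8 members that passed the filter, the difference from control, with R-spondin2 and in the mean of the clones, kept its direction under every alternative that gave it a value, except in 2 whose mean clone difference was near 0. IGF1R (0.01) was at -0.0084 after rescaling and -0.0117 without clone 1, and IGFBP2 (0.10) was at -0.00196 without clone 1. IGFBP5 was lower past 2-fold in each clone under every setting whose filter it passed, and with a pseudocount of 0.1 its mean clone difference was -2.19. The number of members lower in both clones was 1 in the main setting (1.08% of all genes). With a filter of 5 FPKM, which IGFBP5, IGF2 and IGFBP3 did not pass, it was 0 (1.09%). It was 2 with a pseudocount of 0.1 (1.81%) and 2 at 1.5-fold (3.09%). The second member was IGF2 in both cases. Calls in clone 2 were 2 with a pseudocount of 0.1 (3.41% of all genes), 2 at 1.5-fold (7.03%) and 0 with the filter of 5 FPKM (1.35%), and those in clone 1 were 0 with that filter (2.89%). Between the clones 1 member, IGFBP3, was called with a pseudocount of 0.1 (1.12% of all genes) and at 1.5-fold (2.43%). Of the further genes, 1 (PHLDA2, lower) was called with R-spondin2 under each of these settings (1.09% and 2.01% of all genes), named after its values were seen, and 3 of 59 (HTRA1 higher, SOCS3 and PLAGL1 lower) in both clones at 1.5-fold, beside 5.70% of all genes.

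IGF1, below the filter, was at 0.02 in clone 1 and -0.15 in clone 2. Leaving out 1 clone gave 1 to 2 members called lower, where 1.17% to 2.26% of all genes were. It gave 0 to 1 called higher, where 0.331% to 1.27% of all genes were. Of the 59 further genes, 1 to 2 were called, all lower. Without clone 2, IGF2 and IGFBP5 were called lower and IGFBP3 higher, and without clone 1, IGFBP5 was called lower. The members' median stayed within 0.07 of 0 throughout. With R-spondin2 it was -0.0652 with a pseudocount of 0.1, -0.0328 without a filter, -0.0333 with the filter of 5 FPKM and -0.0488 after rescaling. For the mean of the clones it was -0.00858, -0.0122, 0.00988 and -0.0249 in the same order, and between the clones 0.000244, -0.0216, -0.0432 and 0.00376. No paired analysis was possible because no pairing of the libraries is given and 2 of the groups hold 1 library each. Depth limits IGF1 and IGFBP1. The R-spondin2 intervals of IGF1R, IGFBP3, IGFBP5 and IGFBP6 held 0, as did that of IGF2 with its shortest transcript but not with its longest. Each R-spondin2 difference also rests on 1 library per group.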
